A study of Mus musculus with 6 samples.

Results

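Macrophages are kept alive and made to divide by signals through one receptor tyrosine kinase, and the 8 genes described here are the parts of that system and of the transcription factor set that makes the lineage. They are the growth factors Csf1 and Il34, their shared receptor Csf1r, and 5 transcription factors, Spi1, Irf8, Runx1, Cebpa and Maf. They were taken from the deposited count table by gene symbol, which gave 8 of 46983 genes listed, and all 8 were among the 17473 genes with enough counts to be tested. RNA-seq had been run on whole hearts of E13.5 mouse embryos of a C57BL/6 x DBA/2 background, 1 heart per library. The 3 mutant hearts, replicates 1, 5 and 10, are labelled TnnT2Cre;Wt1flox and carried, by the methods, Tnnt2Cre/+ with both Wt1 alleles floxed. The 3 control hearts, replicates 2, 3 and 5, are labelled wild type, while the methods describe them as negative for Tnnt2 Cre with both Wt1 alleles floxed as well. By the methods, this Cre is active in embryonic heart muscle cells and, in part, in precursors of the epicardium. Macrophages were not its target, and the hearts were sequenced whole.

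CSF1 and IL34 are separate ligands of CSF1R, and both keep tissue macrophages alive. CSF1 is made by stromal and endothelial cells of most tissues, while IL34 is best known from skin and brain. In the embryonic heart, macrophages come first from the yolk sac and later from the fetal liver. PU.1, the product of Spi1, is required for the whole lineage and binds the Csf1r gene. RUNX1 acts before it in blood formation, C/EBP-alpha steers progenitors to the granulocyte and monocyte branch, IRF8 favours the monocyte and macrophage side of that branch, and c-MAF acts late, in mature macrophages.

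The 6 libraries held 44244665 to 56373393 counts, the fewest in wild type replicate 5 and the most in wild type replicate 3. Wt1 itself had 20.9, 17.3 and 10.2 FPKM in the wild type hearts and 9.29, 17.2 and 17.4 FPKM in mutant replicates 1, 5 and 10. The groups overlapped for this gene, whose count covers all exons and all cells of the heart, so it does not check the labels. Cardiac muscle genes stood near the top of all genes (Tnnt2 at 3130 FPKM or more in every heart). Macrophage markers were present in every heart, with Adgre1 between 1.41 and 3.24 FPKM. Of 2 granulocyte markers, Ly6g had 0 to 10 counts. The other, S100a8, was counted in every heart, with 8 to 68 counts in wild type and 65 to 146 in mutant hearts. Wild type replicate 3 stood apart by liver genes, with 17429 counts of Alb against 0 to 289 in the other hearts, and wild type replicate 5 by low values of sarcomere genes with long transcripts, with Myh7 at 356 FPKM there and at 797 to 1022 FPKM in the others. Red cell RNA was also uneven. The summed FPKM of 12 red cell genes was 61340 in wild type replicate 5, 63350 in mutant replicate 10 and 19480 to 26650 in the other hearts. Values without wild type replicate 3 or 5 are given beside the members' results that they move.

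No member passed the test between mutant and wild type hearts at an adjusted p under 0.05 (the quasi-likelihood test of edgeR, adjusted after Benjamini and Hochberg over all genes tested), and neither did any other gene (0.0% of genes). At an unadjusted p under 0.05 stood 2 of the 8 members, Csf1r and Spi1, each higher in the mutant, where 5.73% of all genes had such a p in either direction, 3.14% on the higher side and 2.59% on the lower. The groups did not overlap for the same 2 members, beside 11.2% of all genes in either direction and 6.61% on the higher side. By DESeq2, 0 of the 8 members and 0.69% of the 19282 genes given an adjusted p had one under 0.05. The fitted difference was above 0 in 5 members and below 0 in 3, with a median log2 fold change of 0.25 against -0.0010 over all genes tested.

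**Figure D1:**
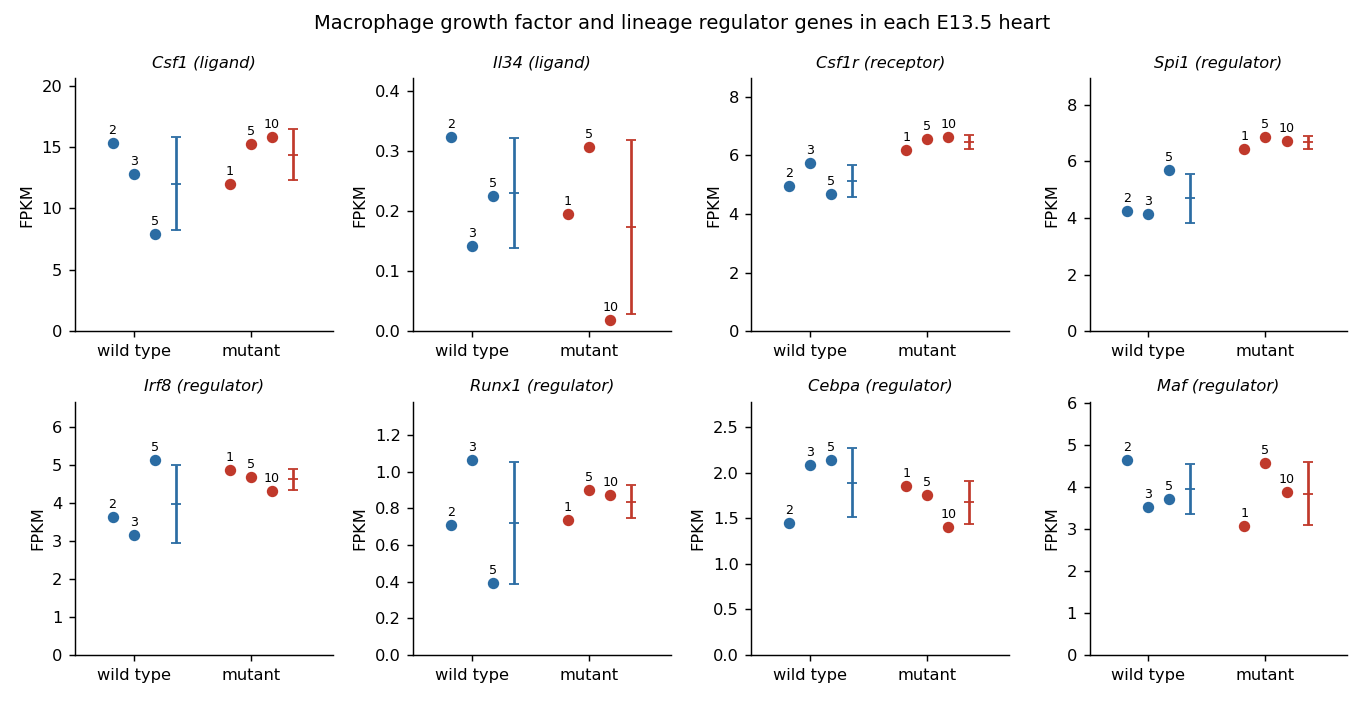
Deposited FPKM (vertical axes, each from 0) of the 8 genes in the 3 wild type hearts (blue) and 3 mutant hearts (red), with replicate numbers at the points and the mean and SD beside each group. The groups do not overlap for Csf1r and Spi1, and wild type replicate 5 is the lowest heart for Csf1 and Runx1 and the highest wild type heart for Spi1 and Irf8.

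Csf1 was the most abundant member. Its level was 15.3, 12.8 and 7.90 FPKM in wild type replicates 2, 3 and 5 and 12.0, 15.3 and 15.8 FPKM in mutant replicates 1, 5 and 10. The groups overlapped, and the low heart was wild type replicate 5, with 695 counts where the others held between 1219 and 1692. The means were 12.0 ± 3.77 and 14.4 ± 2.06 FPKM (SD, n = 3 per group), and the fitted log2 fold change was 0.30 (standard error 0.23, 95% interval -0.24 to 0.83, adjusted p = 0.985, edgeR). Without wild type replicate 5 the log2 fold change was 0.08. Csf1 (ENSMUSG00000014599) lies on the minus strand of chromosome 3 from 107741048 to 107760469 in GRCm38, the assembly of all positions given here.

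Il34, the other ligand, was close to the limit of what these libraries could count. The reads counted in wild type replicates 2, 3 and 5 were 18, 8 and 10, and those in mutant replicates 1, 5 and 10 were 10, 16 and 1. In FPKM that was 0.230 ± 0.0912 in wild type and 0.174 ± 0.145 in mutant hearts (SD, n = 3 per group). The difference was -0.39 on the log2 scale with a standard error of 0.76, and its interval from -2.13 to 1.34 shows that at this depth neither a several-fold fall nor a more than doubled level could be told from no difference. It was 0.12 without mutant replicate 10, the heart with 1 count, and -1.09 without mutant replicate 5. The gene (ENSMUSG00000031750) lies on the minus strand of chromosome 8 from 110741829 to 110805924.

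Set side by side per length, Csf1 made up nearly all of the ligand RNA. Its share of the summed FPKM of both ligands was 97.9, 98.9 and 97.2% in wild type and 98.4, 98.0 and 99.9% in mutant hearts. The means were 98.0 ± 0.844 and 98.8 ± 0.979% (SD, n = 3 per group) and did not differ beyond the spread (exact permutation p = 0.4, two-sided, where 3 hearts against 3 can give no p below 0.1).

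Csf1r, the receptor, was higher in each mutant heart than in any wild type heart. Its level was 4.97, 5.74 and 4.67 FPKM in wild type replicates 2, 3 and 5 and 6.20, 6.57 and 6.64 FPKM in mutant replicates 1, 5 and 10. The gap was small, from 5.74 to 6.20 FPKM, and the mutant hearts lay closer together than the wild type hearts. The means were 5.13 ± 0.549 and 6.47 ± 0.235 FPKM (SD, n = 3 per group). The log2 fold change was 0.37 (standard error 0.11), which is 1.29-fold with a 95% interval from 1.08 to 1.54, at an unadjusted p of 0.0112 and an adjusted p of 0.667 by edgeR, higher in 3 of 3 mutant hearts. Leaving out each heart in turn gave 0.31 to 0.45, and a correction for gene length in each heart gave 0.29. In whole hearts, more cells with the receptor and more receptor RNA per cell cannot be told apart, here and for every gene below.

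Csf1r (ENSMUSG00000024621) lies on the plus strand of chromosome 18 from 61100598 to 61132149. Exons of Hmgxb3 on the opposite strand, a gene with 1574 to 2279 counts per heart, cover 15.1% of its exon bases, and the strand setting of the counting is not given in the sources used here, so reads in that stretch cannot be told apart.

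The level of ligand for each unit of receptor RNA did not separate the groups. Csf1 FPKM over Csf1r FPKM was 3.08, 2.23 and 1.69 in wild type replicates 2, 3 and 5 and 1.94, 2.32 and 2.38 in mutant replicates 1, 5 and 10. The mutant ratios all lay inside the wild type range, and the log2 difference of -0.04 changed sign with the heart left out (exact permutation p = 1, two-sided). Leaving out wild type replicate 5 gave -0.25, and leaving out wild type replicate 2 gave 0.18.

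Spi1, which encodes PU.1, was the other member whose groups did not overlap. It had 4.25, 4.13 and 5.69 FPKM in wild type replicates 2, 3 and 5 and 6.43, 6.87 and 6.71 FPKM in mutant replicates 1, 5 and 10. The highest wild type heart was replicate 5, and the mutant hearts again lay close together. The means were 4.69 ± 0.867 and 6.67 ± 0.220 FPKM (SD, n = 3 per group), and the log2 fold change was 0.54 (standard error 0.19), which is 1.45-fold with a 95% interval from 1.08 to 1.95. By edgeR the unadjusted p was 0.0197 and the adjusted p 0.756, and the level was higher in 3 of 3 mutant hearts. The unadjusted p rose above 0.05 when any of wild type replicates 2 or 3 or mutant replicates 5 or 10 was left out (0.0593 to 0.0639), and was 0.00218 without wild type replicate 5, where the log2 fold change was 0.71. The gene (ENSMUSG00000002111) lies on the plus strand of chromosome 2 from 91082390 to 91115756.

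The ratio of Spi1 to the receptor spread more widely among wild type than among mutant hearts. Spi1 FPKM over Csf1r FPKM was 0.855, 0.720 and 1.22 in wild type replicates 2, 3 and 5 and 1.04, 1.05 and 1.01 in mutant replicates 1, 5 and 10. The mutant values lay inside the wild type range (log2 difference 0.18, exact permutation p = 0.4, two-sided), whose ends were wild type replicates 3 and 5. The log2 difference was 0.39 without wild type replicate 5 (exact permutation p = 0.1, the smallest possible) and 0.015 without wild type replicate 3.

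Irf8, which acts with PU.1 on composite sites, had 3.61, 3.14 and 5.11 FPKM in wild type replicates 2, 3 and 5 and 4.86, 4.67 and 4.32 FPKM in mutant replicates 1, 5 and 10. Wild type replicate 5 was above all mutant hearts, and the other wild type hearts were below them. The log2 fold change was 0.25 (standard error 0.20, 95% interval -0.22 to 0.72, adjusted p = 0.985, edgeR). Without wild type replicate 5 it was 0.49 at an unadjusted p of 0.0113 and an adjusted p of 0.266, a fit in which 6.54% of all genes were higher at an unadjusted p under 0.05, and without wild type replicate 3 it was 0.11. The gene (ENSMUSG00000041515) lies on the plus strand of chromosome 8 from 120736358 to 120756694.

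Runx1 was low and varied most among the control hearts. The reads counted in wild type replicates 2, 3 and 5 were 111, 169 and 49, and those in mutant replicates 1, 5 and 10 were 106, 133 and 131. The wild type hearts held both the highest and the lowest value, and the mutant hearts lay between them. The means were 0.720 ± 0.335 and 0.836 ± 0.0892 FPKM (SD, n = 3 per group), with a fitted log2 fold change of 0.25 (standard error 0.35, 95% interval -0.55 to 1.04, adjusted p = 0.985, edgeR), and leaving out wild type replicate 5 gave -0.04, wild type replicate 3 left out gave 0.63. The gene (ENSMUSG00000022952) lies on the minus strand of chromosome 16 from 92601466 to 92826149.

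Cebpa had 1.45, 2.08 and 2.13 FPKM in wild type replicates 2, 3 and 5 and 1.86, 1.75 and 1.41 FPKM in mutant replicates 1, 5 and 10. The groups overlapped, with wild type replicates 3 and 5 above every mutant heart and wild type replicate 2 near the lowest. The log2 fold change was -0.15 (standard error 0.21, 95% interval -0.63 to 0.33, adjusted p = 0.985, edgeR), and it stayed below 0 with each heart left out in turn, from -0.31 to -0.04. The gene (ENSMUSG00000034957) has a single exon and lies on the plus strand of chromosome 7 from 35119293 to 35121928. Leaving out wild type replicate 3 gave -0.08, and leaving out wild type replicate 5 gave -0.04.

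Maf had 4.62, 3.52 and 3.70 FPKM in wild type replicates 2, 3 and 5 and 3.06, 4.57 and 3.86 FPKM in mutant replicates 1, 5 and 10. The groups overlapped and neither stood above the other. The log2 fold change was -0.01 (standard error 0.18, 95% interval -0.42 to 0.39, adjusted p = 0.997, edgeR), and the sign depended on the heart left out. The gene (ENSMUSG00000055435) lies on the minus strand of chromosome 8 from 115682942 to 115707794.

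**Figure D2:**
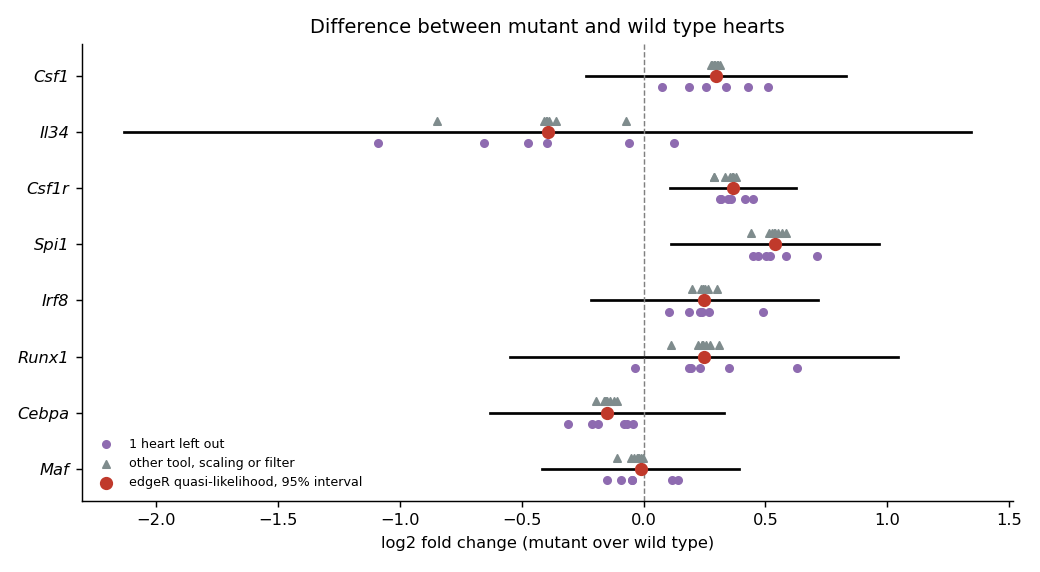
Log2 fold change of each gene, mutant over wild type (horizontal axis), by edgeR's quasi-likelihood test (red points, bars are 95% intervals), with each of 6 hearts left out (purple) and with other tools, scalings or filters (grey triangles). The intervals of Csf1r and Spi1 lie above 0, those of the other 6 genes span it, and the points of Il34, Runx1 and Maf fall on both sides of 0 as hearts are left out.

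By level, the wild type order was Csf1, Csf1r, Spi1, Irf8, Maf, Cebpa, Runx1 and Il34, from 12.0 down to 0.230 FPKM. By the mean over all 6 hearts, Csf1 and Il34 stood at percentiles 59.7 and 6.63 of the genes tested. The neighbours Csf1r and Spi1, Spi1 and Irf8, and Irf8 and Maf had overlapping ranges in wild type hearts. Within single hearts Spi1 was above Irf8 in 3 of 3 wild type hearts, Csf1r above Spi1 in 2 and Irf8 above Maf in 1, so for the last 2 pairs the order was not the same in every heart. In mutant hearts Csf1r and Spi1, and Irf8 and Maf, still overlapped, while the lowest Spi1 value (6.43 FPKM) was above the highest Irf8 value (4.86 FPKM). The lengths behind the deposited FPKM were shorter than the annotated exons of these genes together, 1575 against 7055 bases for Irf8 and 898 against 2695 bases for Spi1. With all annotated exon bases as the length, a setting chosen after seeing the data, the order was Csf1, Csf1r, Maf, Cebpa, Spi1, Irf8, Runx1 and Il34, so the middle of the order depends on the length used.

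The start regions of 4 members, Csf1, Cebpa, Irf8 and Runx1, are in the RefSeq promoter table (GRCm38.p6), in 6 windows of 300 bases, since Irf8 and Runx1 have more than one start. They were searched on both strands for core letters of the factors in question, GAGGAA for PU.1, TGTGGT for RUNX, TTGCNNAA for C/EBP and the direct repeat of the interferon-stimulated response element for IRF, and for TATAAAA, the TATA box. Of all 32817 windows in that table, 28.3% held the first, 16.8% the second, 10.8% the third, 3.43% the fourth and 5.48% the TATA letters. The 120 bases before 4 of the starts are shown to set the regulators' starts side by side, with a TATAAAA match or a match to GAGGAA on the other strand (TTCCTC) in capitals:
Cebpa, chr7:35119173-35119292, plus strand: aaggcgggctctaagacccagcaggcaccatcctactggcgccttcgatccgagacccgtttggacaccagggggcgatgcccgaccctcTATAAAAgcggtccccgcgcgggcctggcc
Irf8, chr8:120736238-120736357, plus strand: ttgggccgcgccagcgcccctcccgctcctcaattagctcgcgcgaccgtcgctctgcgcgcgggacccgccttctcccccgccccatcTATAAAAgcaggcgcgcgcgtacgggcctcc
Runx1 proximal start, chr16:92697330-92697449, minus strand: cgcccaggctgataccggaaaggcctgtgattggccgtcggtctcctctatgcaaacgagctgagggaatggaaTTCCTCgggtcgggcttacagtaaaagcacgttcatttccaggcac
Runx1 distal start, chr16:92826075-92826194, minus strand: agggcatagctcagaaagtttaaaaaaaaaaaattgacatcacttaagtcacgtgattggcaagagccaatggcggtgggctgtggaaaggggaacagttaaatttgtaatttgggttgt
The TATA letters began 30 bases before the start of Cebpa and 31 before the Irf8 start shown, and were in neither Runx1 window. The window of the other Irf8 start, not shown, held none of the words searched. The proximal Runx1 window held TTCCTC 46 bases before the start. The distal window held the RUNX letters only in its transcribed part, and the Csf1 window held none of the words searched. These are matches of letters in one window each and carry no measurement of binding.

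Markers of macrophages moved with Csf1r and Spi1. Of 30 listed markers, 29 were tested, 27 were higher in the mutant and 2 lower, with a median log2 fold change of 0.63. At an unadjusted p under 0.05, 21 were higher (72.4%, beside 3.14% of all genes tested). None had an adjusted p under 0.05 by edgeR and 7 did by DESeq2, beside 0.69% of all genes given one. This list, like those below, was chosen with earlier results of these data known. These shares therefore describe the list and are no independent test. The summed FPKM of the list was 262, 283 and 344 in wild type replicates 2, 3 and 5 and 397, 434 and 405 in mutant replicates 1, 5 and 10, so the groups did not overlap (log2 difference 0.49, exact permutation p = 0.1, the smallest possible). Gas6, Lyz2 and Stab1 weighed most in this sum, whose means were 296 FPKM in wild type and 412 FPKM in mutant hearts. Their own means were 54.6, 45.7 and 39.6 FPKM in wild type and 66.7, 66.3 and 45.2 FPKM in mutant hearts. Their log2 fold changes of 0.32, 0.56 and 0.22 were below the list's median. Which cells of the heart made the RNA of these genes was not measured, so the sum is not a measure of macrophages alone. The summed FPKM of 5 defining markers (Adgre1, Cd68, C1qa, Mrc1 and Cx3cr1) was 22.6 to 28.1 in wild type and 36.9 to 41.8 in mutant hearts. The 4 markers with the smallest p were Msr1, Vsig4, Ctss and Timd4. Msr1, a scavenger receptor, had a log2 fold change of 1.28 (adjusted p = 0.113, edgeR), and Ctss, a lysosomal protease, one of 0.75 (adjusted p = 0.154, edgeR). Timd4, a phagocytic receptor, had one of 2.63 (adjusted p = 0.213, edgeR). Vsig4, a complement receptor, had at most 3 counts in each wild type heart and 24 to 38 in mutant hearts. Among defining markers Adgre1 stood at a log2 fold change of 0.73, C1qa at 0.98, Cd68 at 0.50 and Cx3cr1 at 0.32, while Mrc1 stood at -0.19. The part of cell number in the values of Csf1r and Spi1 was not tested.

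**Figure D3:**
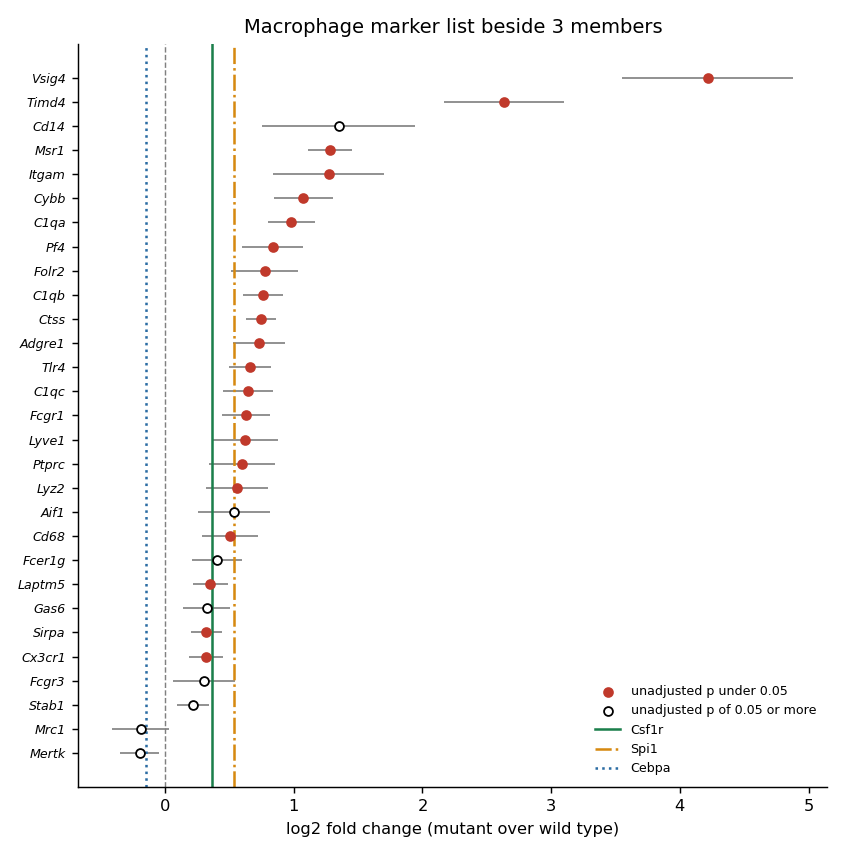
Log2 fold change, mutant over wild type (horizontal axis), of the 29 tested macrophage markers by edgeR, with bars of 1 standard error and filled points at an unadjusted p under 0.05, beside vertical lines for Csf1r, Spi1 and Cebpa. Most markers lie to the right of the Csf1r line at 0.37, and Mrc1 and Mertk lie to the left of 0. The fitted value of Vsig4 rests on at most 3 counts per wild type heart and depends on the prior count of the fit.

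Set against the summed marker level of the same heart, the members parted. Spi1 was 1.63, 1.46 and 1.66% of it in wild type replicates 2, 3 and 5 and 1.62, 1.58 and 1.66% in mutant replicates 1, 5 and 10, a log2 difference of 0.04 (exact permutation p = 0.8). By FPKM over the whole list, Spi1 was thus nearly the same share in all 6 hearts. With TMM-scaled CPM the log2 difference was 0.11 (exact permutation p = 0.3), and the share of Spi1 in the 5 defining markers alone was not measured. Csf1r was 1.90, 2.03 and 1.36% in wild type and 1.56, 1.51 and 1.64% in mutant hearts, with overlapping groups (log2 difference -0.15, exact permutation p = 0.4). That overlap rested on wild type replicate 5, without which the log2 difference was -0.32 (exact permutation p = 0.1, the smallest possible), and it was -0.033 without wild type replicate 3. Against the summed FPKM of the 5 defining markers alone it was -0.33 (exact permutation p = 0.2). Irf8 was 1.38, 1.11 and 1.49% in wild type and 1.22, 1.08 and 1.07% in mutant hearts (log2 difference -0.23, exact permutation p = 0.2), with -0.36 when wild type replicate 3 was left out and -0.15 when wild type replicate 5 was. Runx1 lay between 0.114 and 0.375% in wild type and between 0.185 and 0.215% in mutant hearts, without a separation (log2 difference -0.16, exact permutation p = 0.8), and the difference ran from -0.66 without wild type replicate 5 to 0.20 without wild type replicate 3.

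Cebpa and Maf were a smaller share of the marker level in every mutant heart. Cebpa was 0.555, 0.737 and 0.621% in wild type replicates 2, 3 and 5 and 0.468, 0.404 and 0.348% in mutant replicates 1, 5 and 10. The groups did not overlap (log2 difference -0.65, exact permutation p = 0.1, the smallest possible), and leaving out single hearts gave -0.76 to -0.54. Maf was 1.77, 1.25 and 1.08% in wild type and 0.771, 1.05 and 0.954% in mutant hearts, also without overlap but with a gap of only 1.05 to 1.08% (log2 difference -0.54, exact permutation p = 0.1). For Maf it was -0.69 when wild type replicate 5 was left out and -0.34 when wild type replicate 2 was (exact permutation p = 0.2), the heart with the highest Maf share. The denominator of these ratios was itself higher in the mutant hearts, by 0.49 on the log2 scale. A gene with the same level in both groups would therefore also be a smaller share. Neither gene's own level differed between the groups beyond its spread (log2 fold change -0.15 for Cebpa and -0.01 for Maf, edgeR). How many of all genes would part in this ratio was not measured. Of the 6 ratios to the marker level, none has a p below 0.1, which 3 hearts against 3 cannot give. With TMM-scaled CPM in place of FPKM the same 2 genes were without overlap, at log2 differences of -0.57 and -0.46.

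**Figure D4:**
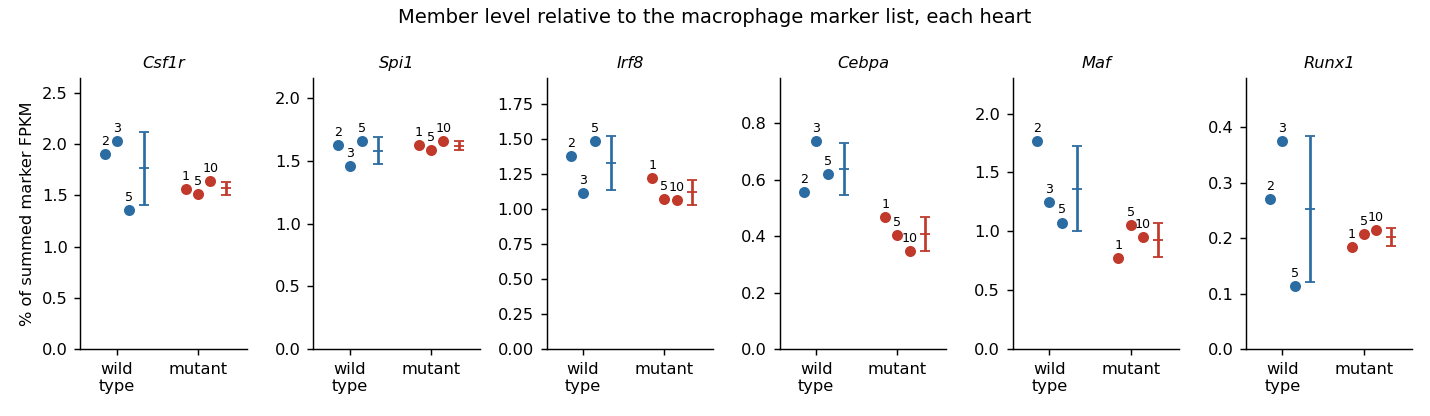
FPKM of 6 genes as a percentage of the summed FPKM of the 30 macrophage markers in the same heart (vertical axes from 0), for 3 wild type (blue) and 3 mutant (red) hearts with the mean and SD beside each group. Spi1 sits between 1.46 and 1.66% in all hearts, while the mutant values of Cebpa, 0.348 to 0.468%, lie below the wild type values, 0.555 to 0.737%.

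The wider CSF1R pathway list holds related growth factors and receptors, adaptors, kinases and the proteases that cut the receptor. Of its 48 genes 45 were tested, 0 had an adjusted p under 0.05 by edgeR and 2 by DESeq2. At an unadjusted p under 0.05 stood 5 on the higher side and 0 on the lower. That was 11.1% and 0% of the list, beside 3.14% and 2.59% of all genes tested. The median log2 fold change was 0.19, and 39 lay above 0 and 6 below. Ptprz1, a receptor phosphatase that also binds IL34, had 0.416, 0.324 and 0.294 FPKM in wild type replicates 2, 3 and 5 and 0.570, 1.15 and 1.24 FPKM in mutant replicates 1, 5 and 10. Its groups did not overlap (log2 fold change 1.56, standard error 0.34, adjusted p = 0.363, edgeR), and mutant replicate 1 lay nearest to the wild type hearts. Stat3, a transcription factor that many cytokine receptors activate, had 47.8, 45.0 and 33.8 FPKM in wild type and 59.9, 71.4 and 60.2 FPKM in mutant hearts (log2 fold change 0.63, standard error 0.14, adjusted p = 0.395, edgeR). Both genes had an adjusted p under 0.05 by DESeq2, Ptprz1 at 0.00246 and Stat3 at 0.0258. Vav1, a guanine nucleotide exchange factor of blood cells, differed by 0.77 on the log2 scale (standard error 0.22, adjusted p = 0.643, edgeR). Flt3, a receptor related to CSF1R and a mark of progenitors, had 5, 2 and 0 counts in wild type and 11, 11 and 14 in mutant hearts.

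The list of other lineage regulators holds relatives of the 5 factors and further transcription factors of blood cells. Of its 53 genes 48 were tested, with 0 at an adjusted p under 0.05 by edgeR and by DESeq2, and a median log2 fold change of 0.09. At an unadjusted p under 0.05, 7 were higher and 1 lower. That was 14.6% and 2.08% of the list, beside 3.14% and 2.59% of all genes tested. The smallest p was that of Egr1, an immediate early gene that also acts in monocytes, which differed by 0.61 on the log2 scale (standard error 0.15, adjusted p = 0.488, edgeR). It was followed by Bhlhe40 at 0.35 (adjusted p = 0.643, edgeR), Nr4a1 at 0.31 (adjusted p = 0.688, edgeR) and Cebpd at 0.47 (adjusted p = 0.822, edgeR). All 4 genes are used by many cell types of the heart, the myocardium included.

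Paralogues and partners of the members, named here after their values were seen, set the members' levels in context. Runx2 and Runx3 were below Runx1, at 0.226 and 0.123 FPKM in wild type hearts, while Cbfb, the partner subunit of all RUNX proteins, was at 66.4 FPKM. Cebpb and Cebpd were above Cebpa, at 4.29 and 8.11 FPKM in wild type hearts. Of the other colony-stimulating factors Csf2 had 0 counts in every wild type heart, which allows up to 3 in each, and 3 counts in mutant replicate 5. Csf3 had 0 to 4 counts in wild type and 1 to 3 in mutant hearts. The receptor chain Csf2ra was at 13.6 to 16.6 FPKM in wild type and 10.3 to 15.2 FPKM in mutant hearts (log2 fold change -0.28, adjusted p = 0.939, edgeR).

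**Figure D5:**
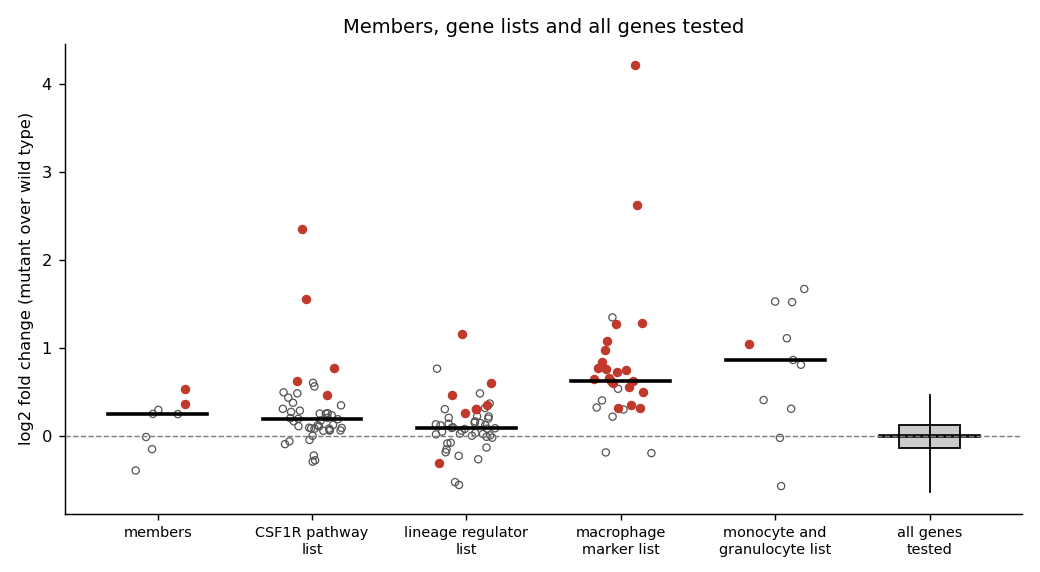
Log2 fold change, mutant over wild type (vertical axis), of the tested genes of 5 lists by edgeR, with filled red points at an unadjusted p under 0.05 and a bar at each list's median, beside a box of all 17473 genes tested (box, quartiles; whiskers, 5th and 95th percentiles). The medians are 0.25 for the 8 members, 0.19 for the CSF1R pathway, 0.09 for other lineage regulators, 0.63 for macrophage markers and 0.86 for monocyte and granulocyte genes, and the fitted values of Vsig4 and Flt3, the top points of their lists, rest on 5 counts or fewer per wild type heart.

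Markers of the other cells that a heart holds or could carry over were read in the same way. Of 18 monocyte and granulocyte genes 11 were tested, with 1 (Itgal, an integrin of leukocytes, log2 fold change 1.05, adjusted p = 0.635, edgeR) higher at an unadjusted p under 0.05 and a median of 0.86. The summed level of that list did not overlap between the groups, at 8.22 to 18.2 FPKM in wild type and 20.2 to 25.4 FPKM in mutant hearts. Plac8, S100a9 and S100a8 weighed most in this sum, and the groups overlapped for each of them. S100a9 had 0.279 to 5.78 FPKM in wild type and 5.36 to 8.09 FPKM in mutant hearts. Of the 11 tested genes, 1 had groups that did not overlap (9.09%, beside 6.61% of all genes on the higher side). The medians were 0.04 for progenitor and mast cell genes, 0.13 for cardiomyocyte, 0.26 for endothelial, 0.07 for fibroblast and smooth muscle, 0.52 for epicardial, -0.18 for erythroid and 0.56 for megakaryocyte and platelet genes. At an unadjusted p under 0.05, 6 of 14 epicardial and 6 of 10 megakaryocyte and platelet genes were higher and 4 of 7 hepatocyte genes were lower, beside at most 2 genes in either direction in each of these other lists. Of all genes tested, 3.14% were higher and 2.59% lower at that p. The hepatocyte list had a median of -3.24 that rests on wild type replicate 3, with a summed FPKM of 893 there and 3.11 to 25.1 in the other hearts. Without wild type replicate 3 the log2 fold changes of Csf1r and Spi1 were both 0.45. The part of these cells in the members' values was not tested.

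For each member the tested genes most alike in pattern over the 6 hearts were found by the root mean square difference of centred log2(FPKM + 0.1). Nearest to Csf1 were Piezo1, Lama2 and Heg1 (0.0548 to 0.0567), all, like Csf1, lowest in wild type replicate 5. Piezo1, a mechanically gated channel, was at 14.7 FPKM in that heart and at 24.1 to 29.9 FPKM in the others. Nearest to Csf1r were Spry1, Fzd6 and Ccdc149 (0.0390 to 0.0476), of which Spry1, a feedback inhibitor of receptor tyrosine kinases, had 5.96, 6.58 and 5.77 FPKM in wild type and 7.36, 7.50 and 8.01 FPKM in mutant hearts. Nearest to Spi1 were Rab20, Scin and Gm13669 (0.0436 to 0.0652), with Rab20, a small GTPase, at 7.04 to 10.3 FPKM in wild type and 11.5 to 11.9 FPKM in mutant hearts. Irf8 was nearest to Rab29, Dctn3 and Zfp949 (0.0278 to 0.0645) and Maf to Tmem144, Rufy4 and Cilp2 (0.0585 to 0.0711). Cebpa was nearest to Ccdc32, Kif5a and Ube2n-ps1 (0.0548 to 0.0584). Runx1 and Il34 had no neighbour as close, the nearest being BC037039 at 0.0990 and RP24-95A6.1 at 0.203. With 6 hearts and 17473 genes such closeness is a description of these libraries, and no member was among the 3 nearest of another.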

How the data were processed

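RNA-seq was analysed from 6 whole E13.5 hearts, 3 wild type and 3 mutant, at 44244665 to 56373393 counts each. Per the methods, the authors trimmed reads with Trim Galore, aligned them to mm10 with RNA STAR and counted uniquely mapped reads with featureCounts and GENCODE M19, and compared groups with DESeq2, while the submitters' processing notes name HTSeq. The authors deposited raw counts per gene and FPKM per gene. How the FPKM were made is not given in the sources used here, but within each gene they equal the count divided by 1 length and a factor for each heart. A deposited table of the authors' means was not used.

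Counts were tested with edgeR 4.0.16 (R 4.3.3): TMM scaling, the default expression filter (minimum count 10, minimum total 15), a quasi-likelihood test and Benjamini-Hochberg adjustment over 17473 genes. Standard errors are of the fitted log2 fold change. Levels are FPKM, ratios were tested over hearts by exact permutation (two-sided), and groups were said not to overlap on TMM-scaled CPM. Alternatives were DESeq2 1.42.0, limma 3.58.1 (voom, and trend on log2(FPKM + 0.1) or log2(FPKM + 1)), other scaling and filters, a loess on gene length in each heart (span 0.5) and each heart left out. The scripts were tested on simulated data. Positions are from GENCODE M21 of the same assembly.

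The members and the 13 gene lists were chosen with earlier results of these data known. The genes named are the 8 members, in each other list the genes with an adjusted p under 0.05 or else the 4 with the smallest p, a fixed set of tissue markers, Wt1 and the 3 genes most alike to each member. The text names the 4 genes for the macrophage, CSF1R pathway and regulator lists only, and for the other lists gives counts or medians. Each library is a separate embryo, and no batch is given in the labels.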

Additional observations from a re-analysis of the deposited data

How the results depend on the processing

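No member had an adjusted p under 0.05 under any alternative run, by any tool, scaling or filter, or with any heart left out. With each heart left out in turn the direction turned for Il34 (-1.09 to 0.12, above 0 without mutant replicate 10), Runx1 (-0.037 to 0.63, below 0 without wild type replicate 5), Maf (-0.15 to 0.14, above 0 at 0.12 without wild type replicate 2 and at 0.14 without mutant replicate 1), Spi1 per marker level (-0.018 to 0.072, below 0 without wild type replicate 3), Runx1 per marker level (-0.66 to 0.20, above 0 without wild type replicate 3) and Csf1 per Csf1r (-0.25 to 0.18, above 0 at 0.18 without wild type replicate 2 and at 0.06 without mutant replicate 1), none of which had passed a test. The cause was not tested. The count of all genes called was 0 by edgeR, 133 by DESeq2, 34 with no filter on low counts, 6 with the length correction and 0 to 44 with a heart left out (44 without wild type replicate 5). With a heart left out, an unadjusted p under 0.05 was reached by 1 to 3 members (3 when wild type replicate 5 was left out, where Irf8 joined Csf1r and Spi1), while 3 to 8 CSF1R pathway genes, 3 to 10 lineage regulators and 13 to 24 macrophage markers were higher at that p and the marker median was 0.53 to 0.84. That median was 0.43 on log2(FPKM + 1). Without wild type replicate 5, 6.54% of all genes tested were higher at an unadjusted p under 0.05, beside 3.14% with all 6 hearts. The counts of that fit are to be read against this larger share, which was not measured with the other hearts left out. Over 14 alternatives each, the log2 fold changes were 0.29 to 0.45 for Csf1r (adjusted p 0.285 to 0.9999) and 0.44 to 0.71 for Spi1 (adjusted p 0.158 to 0.9999). With all exon bases as the length, chosen after seeing the data, wild type FPKM were 4.52 for Csf1, 3.81 for Csf1r, 2.30 for Maf, 1.56 for Spi1, 0.883 for Irf8, 0.169 for Runx1 and 0.118 for Il34. The ratios of Spi1, Irf8, Cebpa, Maf and Runx1 to the markers and of Spi1 and Csf1 to Csf1r were also run in alternatives chosen after seeing the data. Il34 could not be tested with a CPM over 1 in at least 3 hearts. No paired analysis was possible because the groups share only the replicate number 5. Depth limits Il34, at 1 to 18 counts per heart, and 3 hearts per group limit all values.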
